A study of Caenorhabditis elegans with 9 samples.

Results

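The 8 genes lin-14, lin-28, lin-29, lin-41, lin-46, hbl-1, mab-10 and daf-12 of Caenorhabditis elegans were taken by name from the deposited gene count table, which lists 46699 genes. They belong to the heterochronic pathway, the genes that set which larval stage a cell behaves as and when it turns adult. Messenger RNA was sequenced from whole larvae picked by hand while asleep in L4 lethargus, the quiet period before the last molt, after growth at 20 °C on E. coli OP50. The 9 libraries fall into 3 groups of 3 biological replicates. The first group carries the ok3407 allele of nas-38 (strain HBR1010), and the next carries the tm2655 allele of that gene (strain HBR1114). The wild type is strain N2. The labels name no other allele or agent in any group, and each allele is represented by 1 strain. The authors' tables call ok3407 a gain of function and tm2655 a loss of function, and the series title spells the first allele ok4307.

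In this pathway, proteins of early stages are removed in steps by microRNAs, small RNAs that pair with sites in the 3′ untranslated regions of their target messages. The lin-4 microRNA acts on lin-14 and lin-28, members of the let-7 family act on hbl-1, and let-7 itself acts on lin-41. Loss of LIN-41 protein late in larval life releases LIN-29, which with its cofactor MAB-10 directs the adult program of the epidermis: the seam cells, a row of epidermal stem cells along each side, stop dividing, fuse and make adult cuticle.

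All 8 genes were present in every library, and all 8 passed the filter on low counts, which kept 16055 genes of the table. Gene reads per library, exon and intron reads together, ran in megareads (M) from 26.1 M to 40.5 M for ok3407, from 28.1 M to 31.5 M for tm2655 and from 13.8 M to 32.9 M for wild type. The nas-38 transcript averaged 313 ± 77.1 CPM (counts scaled to library size) in ok3407, 10.7 ± 3.45 CPM in tm2655 and 85.7 ± 42 CPM in wild type (SD, n = 3 each). Its log2 fold change was 1.87 for ok3407 versus wild type (edgeR adjusted p = 0.0265), -3.0 for tm2655 versus wild type (0.316) and 4.88 for ok3407 versus tm2655 (0.00113). On the third principal component of all tested genes, tm2655 replicate 1 scored 66.1, while the other 8 libraries scored between -20.1 and 5.32. Muscle markers summed to 9736 to 11390 CPM in ok3407, 13030 to 16180 CPM in tm2655 and 14230 to 17730 CPM in wild type. In edgeR 6 of 10 were called lower in ok3407 than in wild type (adjusted p under 0.05), beside 2.91% of all tested genes. Their median log2 fold change was -0.59. Against tm2655 0 of 10 were called, beside 4.02% of all tested genes (1.69% lower), with a median of -0.48. At an unadjusted p under 0.05, 8 of 10 passed in each of the 2 comparisons. Of all tested genes, 23.6% passed that limit against wild type and 17.6% against tm2655. Intestine markers summed to 3378 to 4029 CPM in ok3407, 5827 to 8209 CPM in tm2655 and 5453 to 8355 CPM in wild type. Of these, 1 of 9 was called lower in ok3407 than in wild type (median -0.49) and 1 of 9 lower than in tm2655 (median -0.64). Whole animals were sequenced, so fewer cells of a type and less RNA per cell cannot be told apart.

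None of the 8 heterochronic transcripts passed the test in any of the 3 comparisons (edgeR quasi-likelihood test, adjusted p under 0.05 over all genes tested). For ok3407 versus wild type 0 of 8 were called, beside 6.23% of all tested genes (1001 of 16055; 3.33% higher and 2.91% lower). For tm2655 versus wild type 0 of 8 were called, beside 0.00623% (1 gene), and for ok3407 versus tm2655 0 of 8, beside 4.02% (645 genes; 2.33% higher and 1.69% lower). With 8 genes, counts of 0 lie near these shares and are no result about the 8.

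The count was also 0 of 8 in each comparison at an unadjusted p under 0.05, a limit that 23.6%, 2.47% and 17.6% of all genes passed in the same order of comparisons. In CPM the 3 libraries of one group overlapped those of the other for all 8 genes in all 3 comparisons. The groups did not overlap for 28.8%, 6.47% and 23.4% of all genes, in the same order. The smallest unadjusted p among the 24 tests was 0.204, for daf-12 in ok3407 versus wild type. DESeq2 and limma also called 0 of 8 in each comparison.

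**Figure D1:**
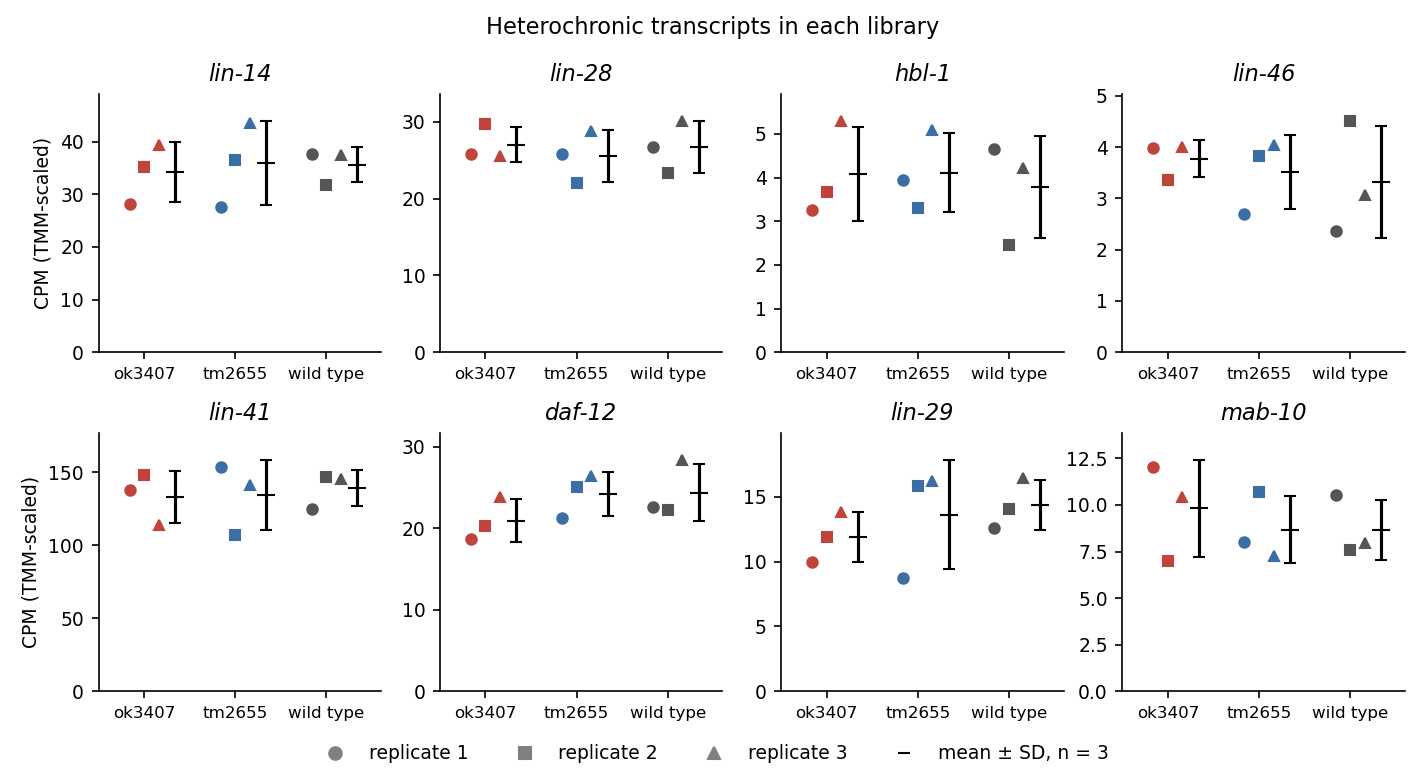
Normalised level of each heterochronic transcript in CPM (linear axes from 0) in the 3 libraries of ok3407, tm2655 and wild type, with the mean and SD of each group beside its points. The groups overlap in every panel.

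Among the genes of early larval fates, lin-14 encodes a transcription factor that holds cells in the first larval stage and is the classical target of lin-4. It had 28.1, 35.3 and 39.4 CPM in ok3407, 27.6, 36.6 and 43.5 CPM in tm2655, and 37.6, 31.8 and 37.4 CPM in wild type, from 476 to 1740 reads per library. The highest and the lowest library were both tm2655 libraries, so the range of that group enclosed the other 6 values. The group means were 34.2 ± 5.72 CPM in ok3407, 35.9 ± 7.97 CPM in tm2655 and 35.6 ± 3.30 CPM in wild type. The log2 fold change was -0.06 ± 0.19 (SE) for ok3407 versus wild type, 0.01 ± 0.19 for tm2655 versus wild type and -0.07 ± 0.19 for ok3407 versus tm2655, with adjusted p of 0.891, 0.999 and 0.889.

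The RNA-binding protein LIN-28 blocks the maturation of let-7 and promotes fates of the early larval stages. Its transcript stood at 25.9, 29.7 and 25.6 CPM in ok3407, 25.9, 22.1 and 28.8 CPM in tm2655, and 26.7, 23.3 and 30.1 CPM in wild type. Of the 8 genes it varied least: its range over the 9 libraries was 0.44 on the log2 CPM scale, at percentile 9.95 of the ranges of all tested genes. The means were 27 ± 2.29 CPM in ok3407, 25.6 ± 3.35 CPM in tm2655 and 26.7 ± 3.38 CPM in wild type. The difference between ok3407 and wild type was 0.02 ± 0.15 on the log2 scale, and its 95% interval ran from a fold of 0.800 to 1.28.

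The zinc finger transcription factor HBL-1, related to Drosophila hunchback, sets the fates of the stage that follows and is a target of the let-7 family. hbl-1 was read from 59 to 234 times per library and had 3.26, 3.68 and 5.29 CPM in ok3407, 3.95, 3.30 and 5.10 CPM in tm2655, and 4.66, 2.46 and 4.23 CPM in wild type. It had the widest range of the 8, 0.97 on the log2 CPM scale, against a median of 0.93 over all tested genes, and was the only one of the 8 above that median. Its log2 fold change was 0.12 ± 0.32 for ok3407 versus wild type, 0.13 ± 0.32 for tm2655 versus wild type and -0.01 ± 0.32 for ok3407 versus tm2655. Its intervals were also the widest, and that for tm2655 versus wild type reached from a fold of 0.664 to 1.81.

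Downstream of lin-28, LIN-46 resembles the scaffold protein gephyrin and opposes HBL-1. lin-46 had 3.97, 3.35 and 4.00 CPM in ok3407, 2.69, 3.82 and 4.04 CPM in tm2655, and 2.37, 4.5 and 3.07 CPM in wild type, from 30 to 177 reads per library. Both the lowest and the highest value came from wild type libraries. The means were 3.78 ± 0.368 CPM in ok3407, 3.52 ± 0.721 CPM in tm2655 and 3.31 ± 1.09 CPM in wild type, and the log2 fold change for ok3407 versus wild type was 0.17 ± 0.29 (adjusted p = 0.769). The ratio of lin-28 to lin-46 in RPKM (exon reads scaled to exon length and library size) was 11.5 ± 1.93 in ok3407, 11.6 ± 3.62 in tm2655 and 13.9 ± 4.88 in wild type, and the groups overlapped.

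LIN-41, an RNA-binding protein of the TRIM-NHL family, represses the messages of lin-29 and mab-10 in larvae and also acts in growing oocytes. lin-41 drew the most reads, between 1579 and 5031 per library. It had 138, 148 and 114 CPM in ok3407, 154, 107 and 141.5 CPM in tm2655, and 125, 147 and 146 CPM in wild type. One tm2655 library was the highest of the 9 and another the lowest. The means of 133 ± 17.5 CPM in ok3407, 134 ± 24.1 CPM in tm2655 and 139 ± 12.3 CPM in wild type differed by less than the SD of any group. On the log2 scale lin-41 differed by -0.06 ± 0.16 for ok3407 versus wild type, -0.05 ± 0.16 for tm2655 versus wild type and -0.01 ± 0.16 for ok3407 versus tm2655.

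Because lin-41 is also expressed in the germ line, markers of oocytes were set beside it. The 10 oocyte markers summed to 1084 to 1311 CPM in ok3407, 1213 to 1909 CPM in tm2655 and 1286 to 1585 CPM in wild type. Their median log2 fold change was -0.27 for ok3407 versus wild type, 0.06 for tm2655 versus wild type and -0.3 for ok3407 versus tm2655. Over all tested genes it was 0.03, 0.01 and 0.01 in the same order, and 0 of 10 passed the test in any comparison. The 10 germ line markers summed to 1959 to 2172 CPM in ok3407, 2043 to 2362 CPM in tm2655 and 2206 to 2490 CPM in wild type. Their medians were -0.01, 0.04 and -0.08 in the same order, again with 0 of 10 called in each comparison. How much of the lin-41 signal comes from each tissue was not tested.

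DAF-12 is a nuclear hormone receptor for the steroid hormones called dafachronic acids, and it couples food and stress signals to the progress of larval stages and to let-7 family transcription. daf-12 had 18.7, 20.3 and 23.8 CPM in ok3407, 21.3, 25 and 26.4 CPM in tm2655, and 22.6, 22.2 and 28.4 CPM in wild type. The lowest pair of libraries was from ok3407, but the third ok3407 library stood above 2 of the wild type libraries and 1 tm2655 library. The means were 21.0 ± 2.62 CPM in ok3407, 24.2 ± 2.66 CPM in tm2655 and 24.4 ± 3.45 CPM in wild type. On the log2 scale daf-12 differed by -0.22 ± 0.16 for ok3407 versus wild type (adjusted p = 0.446), -0.01 ± 0.16 for tm2655 versus wild type (0.999) and -0.21 ± 0.16 for ok3407 versus tm2655 (0.555). daf-12 was the only one of the 8 whose largest difference between group means (0.21 on the log2 scale) exceeded the SD within groups (0.18).

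At the end of the pathway, LIN-29 is the zinc finger transcription factor of the larva-to-adult switch in the epidermis. lin-29 had 9.93, 11.9 and 13.8 CPM in ok3407, 8.74, 15.8 and 16.2 CPM in tm2655, and 12.6, 14.1 and 16.4 CPM in wild type. Replicate 1 of tm2655 was the lowest library, and 2 of the ok3407 libraries stood below all wild type libraries while the third did not. The means were 11.9 ± 1.93 CPM in ok3407, 13.6 ± 4.21 CPM in tm2655 and 14.4 ± 1.94 CPM in wild type. The log2 fold change was -0.27 ± 0.25 for ok3407 versus wild type (adjusted p = 0.553), -0.08 ± 0.25 for tm2655 versus wild type (0.999) and -0.20 ± 0.25 for ok3407 versus tm2655 (0.749).

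MAB-10, a protein of the NAB family of transcriptional cofactors, works with LIN-29. mab-10 had 12, 6.97 and 10.5 CPM in ok3407, 8.01, 10.7 and 7.28 CPM in tm2655, and 10.5, 7.55 and 7.95 CPM in wild type. The highest and the lowest library were both from ok3407. The means were 9.81 ± 2.59 CPM in ok3407, 8.67 ± 1.80 CPM in tm2655 and 8.67 ± 1.61 CPM in wild type, and the log2 fold change for ok3407 versus wild type was 0.18 ± 0.26 (adjusted p = 0.714). The ratio of mab-10 to lin-29 in RPKM was 0.729 ± 0.291 in ok3407, 0.576 ± 0.197 in tm2655 and 0.527 ± 0.122 in wild type, with overlapping groups.

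**Figure D2:**
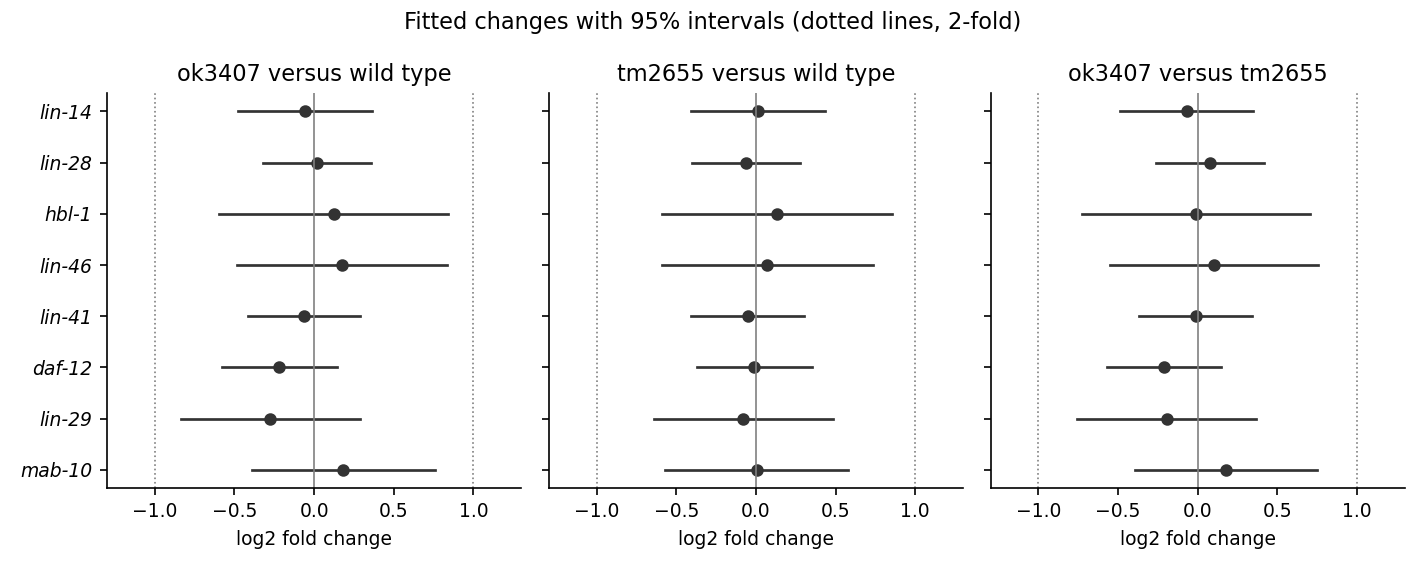
Fitted log2 fold change (points) with 95% interval (bars) of the 8 transcripts in 3 panels, ok3407 versus wild type, tm2655 versus wild type and ok3407 versus tm2655; the dotted lines mark a 2-fold change. Every bar crosses 0 and none reaches a dotted line.

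The intervals show how large a difference these libraries leave room for. All 24 intervals, 3 for each gene, lay between a fold of 0.560 (lin-29, ok3407 versus wild type) and a fold of 1.81 (hbl-1, tm2655 versus wild type), inside a 2-fold change either way. Of these, 13 lay inside a 1.5-fold change. A p above the threshold does not show that the levels were equal, and differences inside these intervals are not excluded. With counts scaled by total reads or with 1 library left out, some intervals of hbl-1, lin-46, lin-29 and mab-10 passed 2-fold, while those of lin-14, lin-28, lin-41 and daf-12 did not in any of 51 alternative edgeR intervals each.

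The median log2 fold change of the 8 was -0.02 for ok3407 versus wild type, 0 to 2 decimals for tm2655 versus wild type and -0.01 for ok3407 versus tm2655, beside 0.03, 0.01 and 0.01 over all tested genes. Their median absolute change was 0.15, 0.06 and 0.09 in the same order, beside 0.31, 0.16 and 0.26 over all genes. The genes behind these values were not matched to the 8 for level. Whether the 8 changed less than genes of like level was not tested. For 7 of the 8, the SD within groups was larger than the largest difference between group means. How often this holds over all genes was not counted. The lists of changed genes in the authors' deposited table, 925 genes for ok3407 and 7 for tm2655, held 0 of the 8. The smallest absolute fold in those lists was 2.0 for ok3407 and 2.39 for tm2655. Absence from them therefore says nothing about smaller changes and adds no separate evidence on the 8.

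Levels of different genes were compared per length, in the RPKM that the authors calculated from exon reads. lin-41 stood highest with a mean of 36.3 RPKM over the 9 libraries (range 27.9 to 43.8, percentile 78.9 of tested genes), ahead of lin-28 with 29.2 RPKM (23.6 to 34.8). lin-41 exceeded lin-28 in 9 of 9 libraries although their ranges overlapped. lin-14 came next with 16.1 RPKM (12.4 to 19.6, percentile 58.6), apart from lin-28 above it and from daf-12 below it.

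daf-12 (8.58 RPKM, range 7.38 to 9.49) and lin-29 (8.14 RPKM, 5.66 to 9.69) could not be ordered, since daf-12 was higher in 6 of 9 libraries. mab-10 followed with 4.79 RPKM (3.63 to 6.73) and was below lin-29 in 8 of 9 libraries. The lowest 2 were lin-46 with 2.5 RPKM (1.65 to 3.15), apart from mab-10, and hbl-1 with 1.24 RPKM (0.769 to 1.80, percentile 16.2). lin-46 exceeded hbl-1 in 9 of 9 libraries, again with overlapping ranges.

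**Figure D3:**
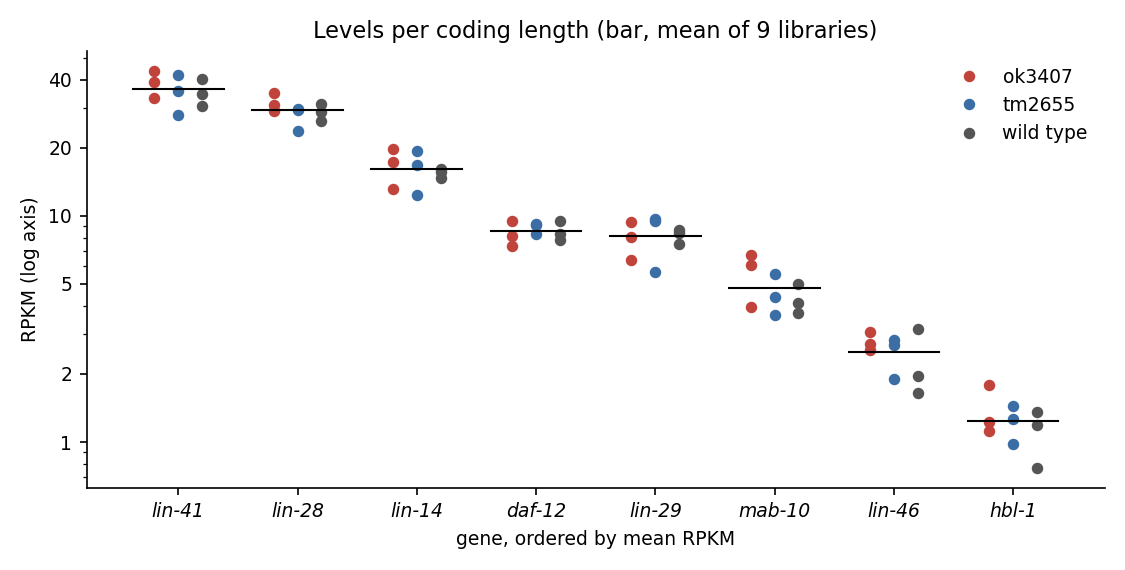
RPKM (log axis) of the 8 transcripts in each of the 9 libraries, ordered by mean, with points coloured by group and a bar at the mean of all libraries. lin-41 lies highest and hbl-1 lowest, and within each gene the colours are mixed.

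No group held all the high or all the low libraries. Wild type replicate 3 held the highest CPM for 3 of the 8 genes, and tm2655 replicates 1 and 2 each held the lowest for 2. The median deviation of the 8 genes from their own means was largest in tm2655 replicate 3 (0.19 on the log2 CPM scale, 7 of 8 genes above their mean) and lowest in tm2655 replicate 1 (-0.13, 2 of 8 above) and ok3407 replicate 1 (-0.13, 3 of 8 above). Among 13996 genes with a mean of at least 1 CPM, the profiles over the 9 libraries most like that of hbl-1 were those of ZC412.3 and C15C8.7, with a root mean square difference of 0.13 on the log2 CPM scale for each. Any profile has nearest genes among so many, and shared regulation with hbl-1 was not tested.

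The deposited positions of all 8 genes equal the coding spans of the WBcel235 annotation, so the 3′ untranslated regions that carry microRNA sites lie outside the counted gene. Their annotated length ranges from 153 bases in lin-46 to 1604 bases in lin-14. lin-28 lies on the minus strand of chromosome I (8408161 to 8410803) and has 4 exons, and lin-41 lies on the minus strand of the same chromosome (9335965 to 9341897) with 16. mab-10 is on the plus strand of chromosome II (10530422 to 10533506) with 8 exons, and lin-29 is on the minus strand there (11918339 to 11933224) with 12. Chromosome V holds lin-46 on its plus strand (12968891 to 12970577), with 5 exons. hbl-1 (5822277 to 5826361, 9 exons), daf-12 (10644440 to 10665481, 19 exons) and lin-14 (11468500 to 11484267, 12 exons) are all on the plus strand of chromosome X.

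Reads of these genes could be placed with little ambiguity. For 7 of the 8 all gene reads were uniquely mapped in every library, and for daf-12 between 97.1% and 100% were. Annotated non-coding genes overlap lin-14 (2), lin-29 (3) and daf-12 (4), and all of these were listed at 0 reads in the 9 libraries.

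The share of a gene's reads that fell in introns, a measure of unspliced transcript, ranged widely among the 8. It was not scaled to intron length, so differences between genes may not reflect unspliced transcript alone. Pooled over the libraries the share was 15.1% for lin-28, 13.2% for lin-46, 12.8% for lin-14, 10.5% for lin-29 and 8.97% for daf-12. It was 3.63% for hbl-1, 2.92% for lin-41 and 2.71% for mab-10. The 3 genes with low shares included both the most and the least abundant of the 8, so this unscaled share did not follow the level.

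Between groups, the intron share of 0 of 8 genes was apart in ok3407 versus wild type and in tm2655 versus wild type, beside 18.8% and 9.84% of 11937 genes with at least 20 exon reads in every library. In ok3407 versus tm2655 it was apart for 3 of 8, beside 21.9%, and was higher in ok3407 for each of these. For lin-29 it was 9.67% to 12.1% in ok3407 and 7.60% to 9.47% in tm2655. For mab-10 it was 2.6% to 5.49% in ok3407 and 0.873% to 2.35% in tm2655, and for daf-12 it was 9.28% to 11.2% in ok3407 and 6.09% to 8.94% in tm2655. Over all genes the intron share was also higher in ok3407, 9.90% to 11.4%, than in tm2655, 8.79% to 9.31%, or wild type, 8.83% to 9.34%, and its part in the 3 genes was not tested. These separations were not tested, and an exact permutation test of 3 against 3 libraries could not give a p below 0.1.

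The share of exon reads that cross an exon-exon junction was highest in lin-29 (71.1%), lin-14 (70.9%) and daf-12 (68.1%). It was 49.3% in mab-10, 48.2% in lin-41, 43.4% in lin-28, 37.1% in lin-46 and 24.6% in hbl-1. The first 3 also have the most exons per kilobase of coding length, between 6.64 and 8.70, and hbl-1 has the fewest, 3.05. Between groups the share was compared for the 11937 genes with at least 20 exon reads in every library. It was apart for 2 of 8 genes in ok3407 versus wild type (lin-14 and lin-29, higher in ok3407), beside 24.1% of these 11937 genes. It was apart for 1 of 8 in tm2655 versus wild type (mab-10, lower in tm2655), beside 7.99%, and for 2 of 8 in ok3407 versus tm2655 (lin-14 and mab-10, higher in ok3407), beside 25.5%. The separations of ok3407 from wild type were narrow. The lowest ok3407 library and the highest wild type library stood at 70.42% and 70.4% for lin-29, and at 71.93% and 71.73% for lin-14. For mab-10 the share was 39.42% to 45.62% in tm2655 and 48.21% to 58.43% in wild type.

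The genes around the 8 were followed in 4 lists. Of 19 tested genes of developmental timing outside the 8, 2 rose in ok3407 versus wild type and 0 fell. Over all tested genes, 3.33% were called higher and 2.91% lower in this comparison. pan-1, a leucine-rich repeat membrane protein needed for molting, had 37.6, 38.3 and 33.7 CPM in ok3407 and 22.2, 27.4 and 21.2 CPM in wild type (log2 fold change 0.63 ± 0.14, adjusted p = 0.0297). myrf-2, a membrane-bound transcription factor related to myrf-1, had 69.6, 85.1 and 78.2 CPM in ok3407 and 61.0, 52.9 and 54.4 CPM in wild type (0.47 ± 0.12, adjusted p = 0.0471). In both genes all ok3407 libraries stood above all wild type libraries. The call of pan-1 was lost without ok3407 replicate 1 or 2 or wild type replicate 1 or 3 (adjusted p up to 0.130 in edgeR) and with only the 6 libraries compared (0.0527). That of myrf-2 held without tm2655 replicate 1 and was lost in the other 8 fits without 1 library (up to 0.178) and in 5 of 10 other settings, the replicate block among them.

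The oscillating timing gene lin-42, the relative of period, had a wider range over the 9 libraries than any of the 8. It had 19.4, 35.7 and 44.5 CPM in ok3407, 20.9, 49.3 and 30.8 CPM in tm2655, and 61.3, 34.1 and 31.4 CPM in wild type, and did not pass in any comparison (-0.34 ± 0.41 for ok3407 versus wild type, adjusted p = 0.662). blmp-1, which encodes a Blimp-1 type transcription factor, averaged 13.7 ± 0.464 CPM in ok3407, 15.9 ± 2.93 CPM in tm2655 and 15.2 ± 2.6 CPM in wild type and did not pass either. Reads at the let-7 locus numbered 0 to 96 per library and none were counted at lin-4; these libraries were made from poly(A) messenger RNA and do not measure mature microRNAs.

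Of 15 tested genes of microRNA processing and function, 1 rose and 1 fell in ok3407 versus wild type. The shares over all tested genes were 3.33% higher and 2.91% lower, so counts of 1 are no result about this list. dcr-1, which encodes the Dicer nuclease that cuts microRNA precursors, averaged 124 ± 9.09 CPM in ok3407 and 89.3 ± 8.34 CPM in wild type (0.47 ± 0.12, adjusted p = 0.0457). alg-2, one of the microRNA Argonautes, averaged 39.2 ± 2.90 CPM in ok3407 and 56.5 ± 6.15 CPM in wild type (-0.53 ± 0.13, adjusted p = 0.0423). The other microRNA Argonaute, alg-1, averaged 63.2 ± 7.5 CPM in ok3407 and 72.8 ± 5.42 CPM in wild type and did not pass (-0.20 ± 0.12, adjusted p = 0.355). Both calls held without tm2655 replicate 1 or wild type replicate 2 and were lost in the other 7 fits without 1 library, with adjusted p up to 0.166 (dcr-1) and 0.171 (alg-2) in edgeR. They were also lost in 4 (dcr-1) and 5 (alg-2) of 10 other settings, the replicate block among them. In tm2655 versus wild type and in ok3407 versus tm2655, 0 genes of the timing and microRNA lists passed. In ok3407 versus tm2655 the log2 fold changes were 0.51 for pan-1 (edgeR adjusted p = 0.0693) and 0.47 for myrf-2 (0.0598). They were 0.41 for dcr-1 (0.0913) and -0.26 for alg-2 (0.330).

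Of 17 tested genes of DAF-12 ligand synthesis, cofactors and dauer signalling, 1 rose and 1 fell in ok3407 versus wild type. Beside shares of 3.33% higher and 2.91% lower over all tested genes, counts of 1 are no result about this list. daf-36, which encodes the Rieske oxygenase of the first step towards dafachronic acid, had 10.4, 10.9 and 9.77 CPM in ok3407, 22.8, 24.8 and 17.4 CPM in tm2655, and 18, 16.9 and 18.9 CPM in wild type. All ok3407 libraries lay below the other 6. The log2 fold change was -0.80 ± 0.16 for ok3407 versus wild type (adjusted p = 0.0256) and -1.07 ± 0.16 for ok3407 versus tm2655 (0.00843). The call against wild type was lost without any 1 of the ok3407 libraries or without wild type replicate 1 or 3 (adjusted p up to 0.111 in edgeR), and with scaling by total reads or limma-trend. That against tm2655 held in all 9 fits without 1 library and in 10 other settings. daf-14, a Smad of the dauer pathway, averaged 24.3 ± 0.0413 CPM in ok3407 and 14.7 ± 1.58 CPM in wild type (0.72 ± 0.18, adjusted p = 0.0436). Its call held without tm2655 replicate 1 or 3 and was lost in the other 7 fits without 1 library (up to 0.170), with no filter and with the replicate block (up to 0.0551).

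daf-9, the cytochrome P450 that makes the hormone in its last step, averaged 5.87 ± 1.62 CPM in ok3407, 5.73 ± 0.188 CPM in tm2655 and 5.52 ± 1.5 CPM in wild type, and did not pass. In this list 0 genes passed in tm2655 versus wild type. daf-36 was the only one to pass in ok3407 versus tm2655, beside 1.69% of all tested genes called lower. There daf-14 had a log2 fold change of 0.69 (edgeR adjusted p = 0.0634).

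Genes at the output of the switch, such as adult collagens, cell fusion proteins and cell cycle regulators, included the largest called changes of the 4 lists. Of 18 tested, 2 rose and 2 fell in ok3407 versus wild type, beside 3.33% higher and 2.91% lower over all tested genes. col-19, an adult-specific cuticle collagen and a direct target of LIN-29, had 335, 380 and 531 CPM in ok3407, 1985, 1627 and 2554 CPM in tm2655, and 1488, 1437 and 2536 CPM in wild type. The highest ok3407 library stood well below the lowest of the other 6. The log2 fold change was -2.13 ± 0.28 for ok3407 versus wild type (adjusted p = 0.00503) and -2.31 ± 0.28 for ok3407 versus tm2655 (0.00345), and both calls held in all 9 fits without 1 library.

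col-62, another collagen, had 145, 84.8 and 274 CPM in ok3407, 686, 576 and 1027 CPM in tm2655, and 630, 605 and 936 CPM in wild type. It fell with log2 fold changes of -2.11 ± 0.42 against wild type (adjusted p = 0.0278) and -2.18 ± 0.42 against tm2655 (0.0277) in edgeR. The call against wild type was lost without ok3407 replicate 1 or wild type replicate 1 or 3 (adjusted p up to 0.106). That against tm2655 was lost without ok3407 replicate 1 or any 1 of the tm2655 libraries (up to 0.0948), with no filter and with only the 6 libraries compared.

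The membrane fusogen gene eff-1, which drives most epidermal cell fusions, had 18, 22.6 and 15.6 CPM in ok3407, 6.44, 5.50 and 4.24 CPM in tm2655, and 7.04, 5.51 and 6.93 CPM in wild type. It rose with log2 fold changes of 1.53 ± 0.23 against wild type (adjusted p = 0.00802) and 1.79 ± 0.23 against tm2655 (0.00393), calls held in all 9 fits. aff-1, the fusogen that joins the seam cells at the end of L4, had 3.73, 4.62 and 5.43 CPM in ok3407, 0.734, 1.58 and 1.06 CPM in tm2655, and 1.98, 1.42 and 0.697 CPM in wild type. It rose with log2 fold changes of 1.77 ± 0.42 against wild type (0.0393) and 2.02 ± 0.42 against tm2655 (0.0284). The call of aff-1 against wild type held without tm2655 replicate 1 or 2 and was lost in the other 7 fits without 1 library (adjusted p up to 0.136 in edgeR) and with the replicate block (0.0638). That against tm2655 was lost without ok3407 replicate 2 or 3 or any 1 of the tm2655 libraries (up to 0.113).

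Of the 9 collagen genes tested in the output list, col-19 and col-62 passed in ok3407 versus wild type and 7 did not. Values of those 7 are for the same comparison, and the genes were named after the values were seen. The log2 fold change (± SE) was -1.12 ± 0.37 for col-7, with an unadjusted p of 0.0148 in edgeR (adjusted p = 0.114). It was -0.63 ± 0.90 for col-63, -0.57 ± 0.69 for col-38, -0.40 ± 0.76 for col-49 and -0.26 ± 0.70 for col-17. For bli-1 and bli-2 it was 0.59 ± 1.55 and 0.60 ± 1.59. Except for col-7, the SE was larger than the change, so the direction in those genes is unresolved. In tm2655 versus wild type 0 of 18 genes of the list passed. The comparisons of ok3407 share the same 3 ok3407 libraries. Of the genes at which LIN-41 acts, mab-3 was at 0.265 to 0.995 CPM in ok3407, 0.315 to 0.889 CPM in tm2655 and 0.326 to 0.632 CPM in wild type and did not pass, and dmd-3, with 0 to 7 reads per library, was not tested. For lin-29 and mab-10 themselves, the log2 fold changes of ok3407 versus wild type were -0.27 and 0.18, and neither passed.

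In ok3407 versus wild type the median log2 fold change was -0.05 for the timing list, -0.08 for the microRNA list, 0.09 for the DAF-12 list and -0.31 for the output list, beside -0.02 for the 8 and 0.03 for all genes. In tm2655 versus wild type these medians were -0.07, 0.01, 0.06 and -0.10, beside 0.01 for all genes. In ok3407 versus tm2655 they were 0.03, -0.06, 0.03 and -0.05, beside 0.01 for all genes. The lower median of the output list in ok3407 was thus not seen against tm2655. Seam cell markers, of which 7 were tested, summed to between 25.2 and 43.0 CPM in ok3407, between 32.4 and 43.7 CPM in tm2655, and between 30.0 and 32.0 CPM in wild type, and 0 of 7 passed. Of 10 epidermis markers, dlg-1 was called higher and elt-3 lower in ok3407 than in wild type (both named after their values were seen). In edgeR 6 of 10 had an unadjusted p under 0.05, beside 23.6% of all tested genes, and these 6 included changes in both directions. The median log2 fold change of the 10 was 0.42 for ok3407 versus wild type, beside 0.03 for all genes. Their summed level was 1525 to 1956 CPM in ok3407, 1527 to 2095 CPM in tm2655 and 1691 to 2143 CPM in wild type. What part such cells have in the changes of the collagens and fusogens was not tested.

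**Figure D4:**
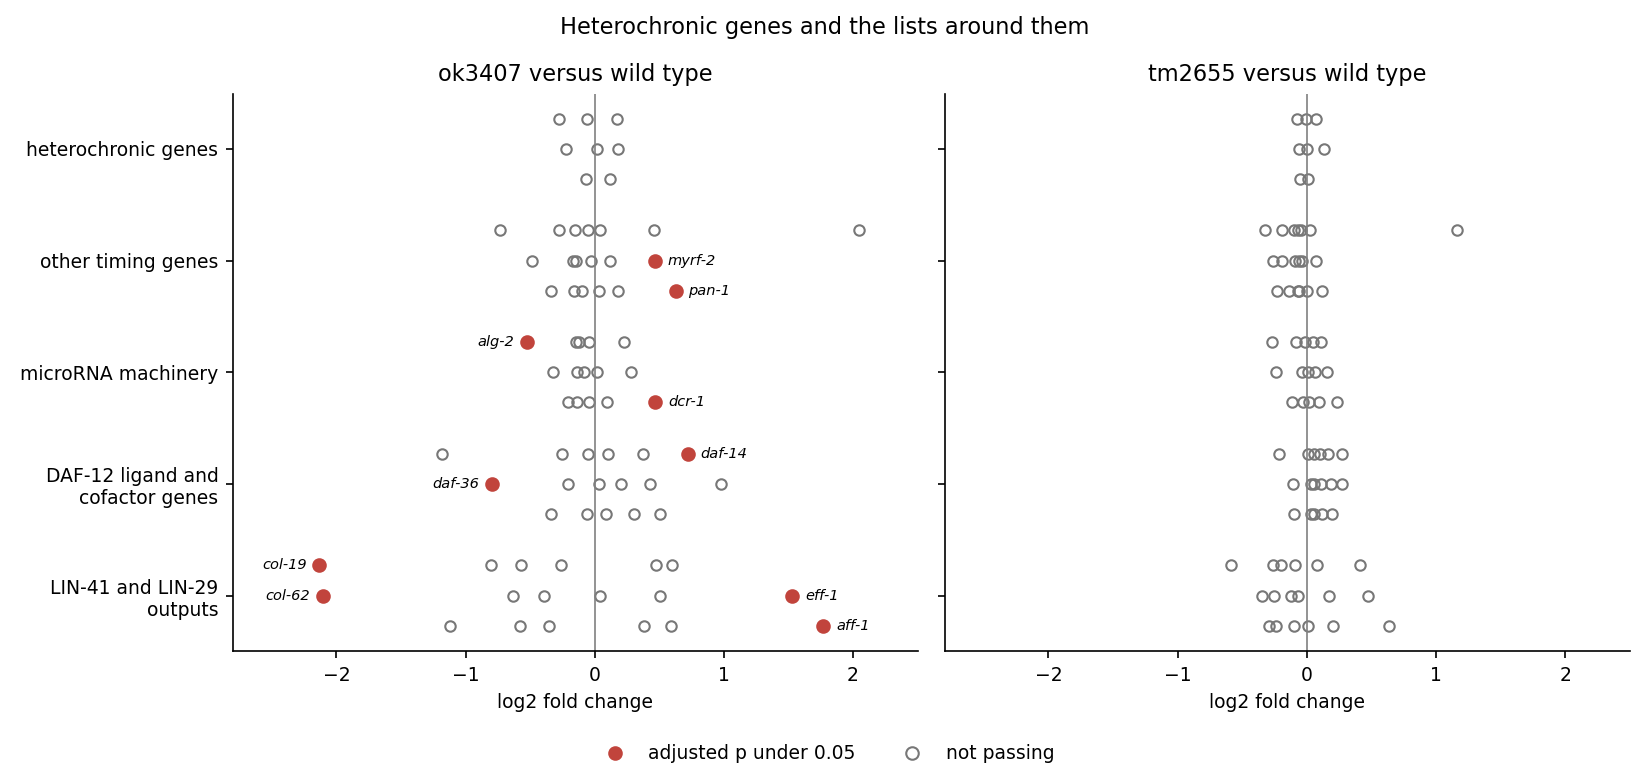
Log2 fold change of each tested gene in the 8 heterochronic genes and 4 related lists, for ok3407 versus wild type and tm2655 versus wild type on the same axis; filled points passed the test and are named. The 8 heterochronic genes lie between -0.27 and 0.18 (ok3407) and between -0.08 and 0.13 (tm2655), and col-19, col-62, eff-1 and aff-1 lie farthest out among the filled points.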

How the data were processed

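Raw counts per gene (total gene reads, exon, intron, junction and uniquely mapped reads) were deposited for each of 9 libraries, per the file headers, beside RPKM, which the authors computed from exon reads and the coding exon length. The authors' deposited comparison tables give a corrected p-value and a signed fold change score, per the file headers. RNA was prepared with an RNeasy lipid tissue kit and a TruSeq stranded mRNA kit and sequenced on a NextSeq500 in 75-cycle paired-end runs by IMGM Laboratories, per the labels. Aligner, counter, strand setting, genome build and annotation were not given in the sources used here.

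Depth was 13.8 M to 40.5 M gene reads. Total gene reads were filtered (filterByExpr, 16055 of 46699 genes kept) and fitted in 1 edgeR quasi-likelihood model of the 3 groups and 9 libraries (robust, TMM factors) with 3 contrasts, adjusted by Benjamini-Hochberg over all genes tested at 0.05. Intervals use the standard error |log2 fold change|/√F and cover 95%. CPM is TMM-scaled.

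The 8 genes and the lists were chosen with earlier results of these data known. Every one of the 8 is named, and from each list at most 3 called genes per direction and comparison with the smallest p, besides let-7, lin-4, lin-42, blmp-1, alg-1, daf-9, mab-3, dmd-3 and col-19. For the gene with the widest range, since none was called, the 2 genes with the nearest profile are named. Of the names in the lists, mir-48, pup-1, ntl-1 and opt-2 were not matched and are not analysed here. Of the other marker lists, 0 of 10 sperm and 0 of 10 neuron markers were called. Nothing in the labels pairs replicates by number. For each gene and library the deviation of log2 CPM from the mean of its group was taken. Over genes, these deviations correlated by -0.24 to 0.40 between same-numbered libraries of different groups, so the numbers were not treated as pairs.

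Alternatives were RLE factors, total library size, no low-count filter, 5 CPM in 3 libraries, DESeq2, a replicate block, only the 6 libraries compared, exon reads, uniquely mapped reads, limma-trend on log2(RPKM + 1), and leaving out each library. Only the edgeR fit and test were tried on simulated counts, and the other steps were not. The versions used were Python 3.11.15 with numpy 2.4.6, pandas 2.3.3 and matplotlib 3.10.9, and R 4.3.3 with DESeq2 1.42.0, edgeR 4.0.16 and limma 3.58.1.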

Additional observations from a re-analysis of the deposited data

How the results depend on the processing

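The count of called heterochronic genes was 0 in each of 19 alternatives in each comparison, with the 5 CPM filter leaving 6 of them (lin-46 and hbl-1 were not tested there), and 0 had an unadjusted p under 0.05 in any. Their log2 fold changes ranged from -0.40 to 0.46 for ok3407 versus wild type, from -0.23 to 0.35 for tm2655 versus wild type and from -0.43 to 0.36 for ok3407 versus tm2655, and 13, 25 and 20 of 150 values each changed sign. Of 216 intervals of edgeR fits without 1 library, 202 stayed within 2-fold (bounds 0.483 to 2.21), and of 186 in the other edgeR alternatives 184 did (0.554 to 2.10). Intervals reached 2-fold 10 times for hbl-1, 3 times for lin-46, 2 times for lin-29 and 1 time for mab-10.

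For ok3407 versus wild type, 1001 genes were called, 1956 with DESeq2 and 123 to 1163 without 1 library: 521 without ok3407 replicate 1, 299 without ok3407 replicate 2, 385 without wild type replicate 1 and 123 without wild type replicate 3. For ok3407 versus tm2655, 645 were called, 1435 with DESeq2, 390 with only the 6 libraries, and 222 to 623 without 1 library: 288 without ok3407 replicate 2, 280 without tm2655 replicate 2 and 222 without tm2655 replicate 3. For tm2655 versus wild type, 1 gene was called, 4 with DESeq2 and 0 to 1 without 1 library. edgeR called 0 under the 5 CPM filter, with the replicate block and with exon reads only (236, 372 and 378 genes at an unadjusted p under 0.05). The cause of these shifts was not tested.

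With the replicate block, 883 genes were called for ok3407 versus wild type, 0 for tm2655 versus wild type and 674 for ok3407 versus tm2655, and 0 of the 8 heterochronic genes in each. In deviations of log2 CPM from the group means, 5 of 9 libraries correlated best with a library of their own number in another group. Scaling by total reads moved the median of all genes to 0.24 (ok3407 versus wild type) and 0.19 (ok3407 versus tm2655) and the share of higher calls to 81.9% and 76.9%, beside 53.3% and 58.0%; with limma-trend on RPKM the shares were 75.3% and 71.5%. lin-46 and hbl-1 rest on the fewest reads of the 8, 30 to 234 per library. How far depth sets the width of their intervals was not tested.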
